A study of Rattus norvegicus with 48 samples.

Results

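The genes described here are 100 heart transcripts whose mean level at day 11 was higher after methamphetamine than after saline in hearts from both females and males, and whose level did not follow the clock gene Arntl closely after abstinence. They were chosen from 32883 Ensembl rat genes on their measured values. Genes with a mean normalized count of at least 50 numbered 10701, of which 293 were left out because their Pearson correlation with Arntl over the abstinence libraries was 0.6 or more in size. Among the remaining 10408 candidates, the log2 ratio of the methamphetamine mean to the saline mean at day 11 was above 0 in both sexes for 3595 genes, and the 100 genes with the highest value of the smaller of the 2 ratios were taken. Because the day 11 ratios chose these genes, their day 11 values are a description without a test. The values after abstinence did not enter the ratios, but they set the limit on the correlation with Arntl.

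The libraries were made from left ventricular tissue of Sprague Dawley rats, 8 weeks of age, that received daily subcutaneous injections of saline or 5 mg/kg/day methamphetamine on 10 consecutive days. Hearts were collected on day 11, 24 h after the last injection, or after 30 days of abstinence, which gave 8 groups by sex, treatment and time with 1 rat per library. Saline rats were injected on the same schedule. All libraries of day 11 were pooled and sequenced apart from those taken after abstinence, so time and sequencing pool cannot be told apart. In all, 47 libraries of 6661581 to 11314050 counts were analysed, and the female saline replicate 3 of day 11 was not analysed here.

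The libraries labelled replicate 5 stood apart from the others. Levels of 4 male-specific genes were each taken as a percentage of the gene's median in libraries labelled M, and averaged. The genes were picked in these data by label, with a median count of at least 20 in M and almost none in F. In the replicate 5 libraries labelled F this average was 89.0% to 120%, against 0% to 2.79% in the other female libraries. In the replicate 5 libraries labelled M it was 7.67% to 11.8%, against 73.0% to 117% in the other male libraries. Replicate 5 was therefore not used to choose the genes and is left out below unless it is named, which leaves 4 female saline libraries and 5 libraries in each other group at day 11, and 5 in each group after abstinence. Whether the treatment labels of replicate 5 hold was not tested. Of the defining markers of heart cell types, only Ptprc, Myl4 and Pdgfrb could be paired with an identifier, so the tissue could not be checked against cardiomyocyte markers. Myl4, an atrial myosin light chain, had 52.2 to 810 normalized counts in saline females and 26.6 to 49.9 in treated females at day 11, and 17.2 to 41.1 and 19.3 to 308 after abstinence. In males it was 20.6 to 36.7 at day 11 and 6.81 to 38.4 after abstinence. Its part in the day 11 ratios was not tested.

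Cells respond to catecholamines, steroid hormones and altered feeding or activity with waves of transcription that can outlast a drug's presence by hours. Methamphetamine releases catecholamines, which drive the heart through adrenergic receptors. Glucocorticoids act through a nuclear receptor that induces genes such as Zbtb16, Tsc22d3 and Glul. Loss of insulin signalling frees FOXO factors to induce genes such as Sesn1, and unfolded protein in the endoplasmic reticulum induces Herpud1. The molecular clock is a separate loop in which Clock and Arntl activate the Per and Cry genes, whose products repress them.

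A gene symbol could be paired with 24 of the 100 genes and not with the other 76, which are given by Ensembl identifier or as counts. Only 327 of all 32883 genes had a symbol, mostly genes that the study had listed as changed, so the named genes are not a random draw of the 100. They include Fmo2, a flavin-containing monooxygenase, Gbp1, an interferon-induced GTPase, Mid1ip1, an activator of fatty acid synthesis, and Cry2, one of the clock's repressors. Cry2 correlated with Arntl at -0.57 and Sesn1 at -0.58 over the 20 abstinence libraries, just inside the limit of 0.6. The exclusion of clock genes was therefore partial. The correlation with Arntl was below 0 for 70 of the 100 genes and for 47.8% of the candidates, -0.3 or less for 38 genes and 14.6% of the candidates, and 0.3 or more for 7 genes and 15.9% of the candidates.

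The genes' promoters were searched for 5 motifs of the clock and of hormone response, to show what the named genes share in sequence beyond their values. RefSeq (GRCr8) held exactly 1 promoter of 300 bases, from 250 bases before the start to 50 after it, for 16 of the 24 named genes, more than 1 for 5, and none for 3. The E-box CACGTG, bound by Clock and Arntl, was in 1 of the 16 and in 6.42% of all 33469 promoters of that length. The D-box TTATGTAA was in 2 of the 16 and in 0.893% of all, and the Rev-erb and ROR core TAGGTCA in 1 and in 2.63%. The palindrome ACANNNTGT of glucocorticoid response elements was in Slc2a12 and Cldn12, 2 of the 16, and in 6.86% of all. The cyclic AMP response element TGACGTCA was in 0 of the 16 and in 1.83% of all. Both strands were searched, and a match is a description of letters, not a bound site. The promoters below hold the matches to clock motifs, with the matched letters in capitals, and that of Cry2 is shown because Cry2 is the clock repressor among the genes, with no match to any of the 5 motifs.
Ivns1abp promoter, chr13:65976819-65977118, plus strand: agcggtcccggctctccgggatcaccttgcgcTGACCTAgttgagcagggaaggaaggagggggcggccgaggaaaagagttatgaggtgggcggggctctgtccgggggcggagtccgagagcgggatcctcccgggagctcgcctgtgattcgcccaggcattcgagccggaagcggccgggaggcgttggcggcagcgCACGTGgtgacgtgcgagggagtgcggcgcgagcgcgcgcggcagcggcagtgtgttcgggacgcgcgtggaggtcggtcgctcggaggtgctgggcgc
Fam76a promoter, chr5:150419469-150419768, minus strand: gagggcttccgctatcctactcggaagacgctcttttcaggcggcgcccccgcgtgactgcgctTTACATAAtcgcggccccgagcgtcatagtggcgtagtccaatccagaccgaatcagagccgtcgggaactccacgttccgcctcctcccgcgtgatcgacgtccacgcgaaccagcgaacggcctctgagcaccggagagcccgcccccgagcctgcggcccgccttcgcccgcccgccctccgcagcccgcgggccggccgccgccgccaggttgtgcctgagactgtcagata
Fam120b promoter, chr1:65011976-65012275, plus strand: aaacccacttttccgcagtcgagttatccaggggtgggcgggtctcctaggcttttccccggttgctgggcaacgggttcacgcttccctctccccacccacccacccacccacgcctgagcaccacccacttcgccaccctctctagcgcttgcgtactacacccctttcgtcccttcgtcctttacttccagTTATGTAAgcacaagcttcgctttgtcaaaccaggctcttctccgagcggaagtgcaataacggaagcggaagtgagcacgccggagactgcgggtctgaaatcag
Cry2 promoter, chr3:98860388-98860687, minus strand: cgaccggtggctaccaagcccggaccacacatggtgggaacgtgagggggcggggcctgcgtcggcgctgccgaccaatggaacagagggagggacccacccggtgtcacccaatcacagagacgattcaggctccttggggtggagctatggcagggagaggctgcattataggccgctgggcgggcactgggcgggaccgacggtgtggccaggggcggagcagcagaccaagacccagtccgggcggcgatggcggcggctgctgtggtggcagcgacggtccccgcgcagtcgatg
In Ivns1abp the E-box began 49 bases before the start and the reverse complement of the Rev-erb and ROR core 218 bases before it. The D-box began 56 bases before the start in Fam120b and, on the reverse strand, 186 bases before it in Fam76a.

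At day 11 the values that chose the genes were moderate in size. The log2 ratio ranged from 0.33 to 2.15 in hearts from females, with a median of 0.46, and from 0.33 to 1.14 in hearts from males, with a median of 0.44. The medians over the candidates were 0.00945 and -0.00167. A ratio of 2-fold or more was found for 9 of the genes in females and for 2 in males, and the ratio was larger in females for 56 genes and in males for 44. Every methamphetamine library lay above every saline library for 69 genes in females, beside 5.83% of the candidates, for 48 genes in males, beside 5.45%, and for 40 genes in both, beside 1.09%. As these are the values the genes were chosen on, nothing is read from those counts. In bulk tissue, fewer cells of a type and less RNA per cell cannot be told apart.

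The last genes inside the rule and the first outside it were close. The 98th to 100th genes had smaller ratios of 0.33, 0.33 and 0.33, and the next 3 genes had 0.32, 0.32 and 0.32. The 100 genes span a wide range of abundance, from a mean normalized count of 51.7 to 9125 with a median of 228, against a median of 263 for the candidates. The identifiers ENSRNOG00000050002 and ENSRNOG00000048668 had equal counts in 40 of 47 libraries and differed by at most 2 counts in the others, so they may share reads and their separate values are uncertain.

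The level of the genes as a group is the mean over the 100 genes of the log2 normalized count (plus 1) less the gene's mean in the saline libraries of day 11. At day 11 it was -0.17, 0.10, 0.13 and 0.14 in the 4 saline females, and 0.56, 0.57, 0.63, 0.66 and 0.67 in the 5 treated females. It was -0.41, -0.05, 0.02, 0.05 and 0.19 in the saline males and 0.33, 0.41, 0.53, 0.54 and 0.56 in the treated males. The groups did not overlap in either sex, which the choice of the genes fixes.

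**Figure D1:**
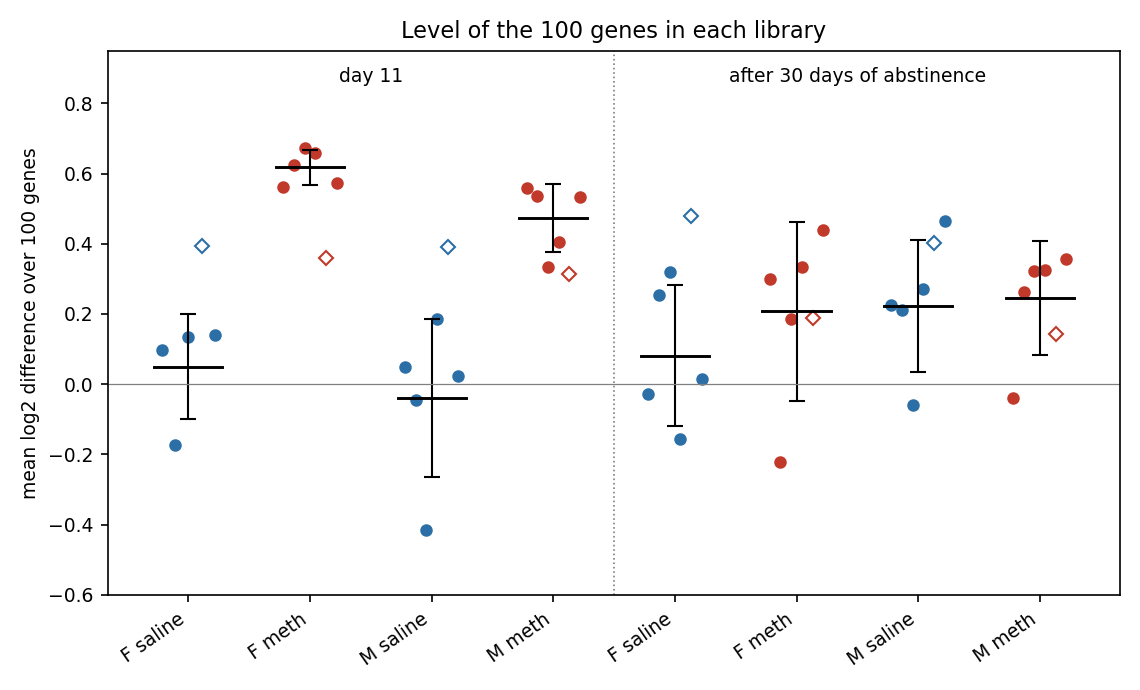
Level of the 100 genes (vertical axis, mean log2 difference from the saline libraries of day 11) in each library of the 8 groups (horizontal axis). Filled points are the libraries used to choose the genes at day 11 and those used in the tests after abstinence, open diamonds are the libraries labelled replicate 5, and bars are the mean and SD without replicate 5. The treated libraries of day 11 lie between 0.33 and 0.67, the replicate 5 libraries of day 11 between 0.31 and 0.39 whatever their treatment label, and the groups after abstinence overlap.

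Among enzymes and transporters, Fmo2 ranked highest of the named genes by the smaller of its 2 ratios, which were 1.08 in females and 0.83 in males. Its normalized count at day 11 was 125, 154, 158 and 177 in saline females and 248, 253, 279, 412 and 436 in treated females. In males it was 152, 181, 198, 247 and 314 with saline and 275, 286, 437, 462 and 487 with methamphetamine. The female groups were apart, and in males the lowest treated libraries lay below the highest saline library. Mid1ip1 had a mean of 513 ± 76.3 (SD, n = 4) with saline and 1258 ± 114 (SD, n = 5) with methamphetamine in females, and of 792 ± 81.9 and 1157 ± 152 (SD, n = 5 each) in males. Glul, which makes glutamine from glutamate and ammonia, had means of 1559 ± 162 and 2256 ± 199 in females and 1414 ± 125 and 1795 ± 200 in males. The glucose transporter gene Slc2a12 and the mitochondrial basic amino acid carrier gene Slc25a29 had ratios of 0.52 and 0.61 in females and 0.66 and 0.38 in males.

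Herpud1, part of the degradation machinery of the endoplasmic reticulum, had 1383, 1388, 1470 and 1500 normalized counts in saline females and 2522, 2639, 2649, 2667 and 2691 in treated females. In males it had 1154, 1250, 1348, 1376 and 1747 with saline and 1671, 1838, 1961, 2093 and 2219 with methamphetamine. The female groups were far apart compared with their spread, whereas in males saline replicate 3 lay above the lowest treated library. Dnajb4, a co-chaperone of Hsp70, had means of 675 ± 57.3 and 1177 ± 65.2 in females and 808 ± 63.2 and 1044 ± 148 in males. Sesn1, which restrains mTORC1, had 785 ± 80.0 and 1305 ± 102 in females and 800 ± 70.2 and 1067 ± 92.1 in males. Txndc16, a thioredoxin-domain protein of the endoplasmic reticulum, and Rev1, a DNA polymerase that copies past damaged bases, had ratios of 0.86 and 0.63 in females and 0.51 and 0.41 in males.

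Among transcriptional regulators, Zbtb16 had the largest ratio of any of the 100 genes, 2.15 in females, and a ratio of 0.46 in males. Its counts were 94.01, 96.6, 98.2 and 164 in saline females and 593, 584, 584, 569 and 198 in treated females, the last being replicate 6. In males they were 73.3, 106, 110, 117 and 265 with saline and 96.6, 108, 115, 137 and 470 with methamphetamine, the last being replicate 6. The ratio in males therefore rested on 1 library, and the other treated males lay within the range of saline males. Cry2 had 373, 389, 421 and 435 in saline females and 662, 714, 715, 723 and 759 in treated females. In males it had 364, 391, 395, 438 and 526 with saline and 587, 594, 604, 611 and 670 with methamphetamine. The Cry2 groups did not overlap in either sex. Over the same libraries Arntl itself was 521 to 733 in saline and 13.4 to 22.1 in treated females, and 122 to 353 in saline and 39.3 to 85.8 in treated males.

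Among signalling and membrane genes, Gbp1 had 204, 291, 304 and 377 in saline females and 307, 432, 464, 520 and 675 in treated females, which overlapped. In males it had 292, 326, 340, 442 and 604 with saline and 691, 743, 806, 898 and 904 with methamphetamine, which did not. Rapgef5, an exchange factor for the small GTPase Rap1, had a ratio of 1.13 in females and 0.35 in males, and F3, tissue factor, the initiator of coagulation, had 1.32 and 0.33. The tight junction gene Cldn12 had 0.62 and 0.43, and Zfyve9, an anchor of SMAD proteins in TGF-beta signalling, had 0.33 and 0.40. The difference of the day 11 ratios between the sexes was not tested, since the ratios chose the genes.

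In males at day 11, the rats' numbers fell into a low and a high series: every saline rat carried a number of the low series and every treated rat one of the high series, so treatment and number series cannot be told apart there. In females at day 11 all rats were from the high series.

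**Figure D2:**
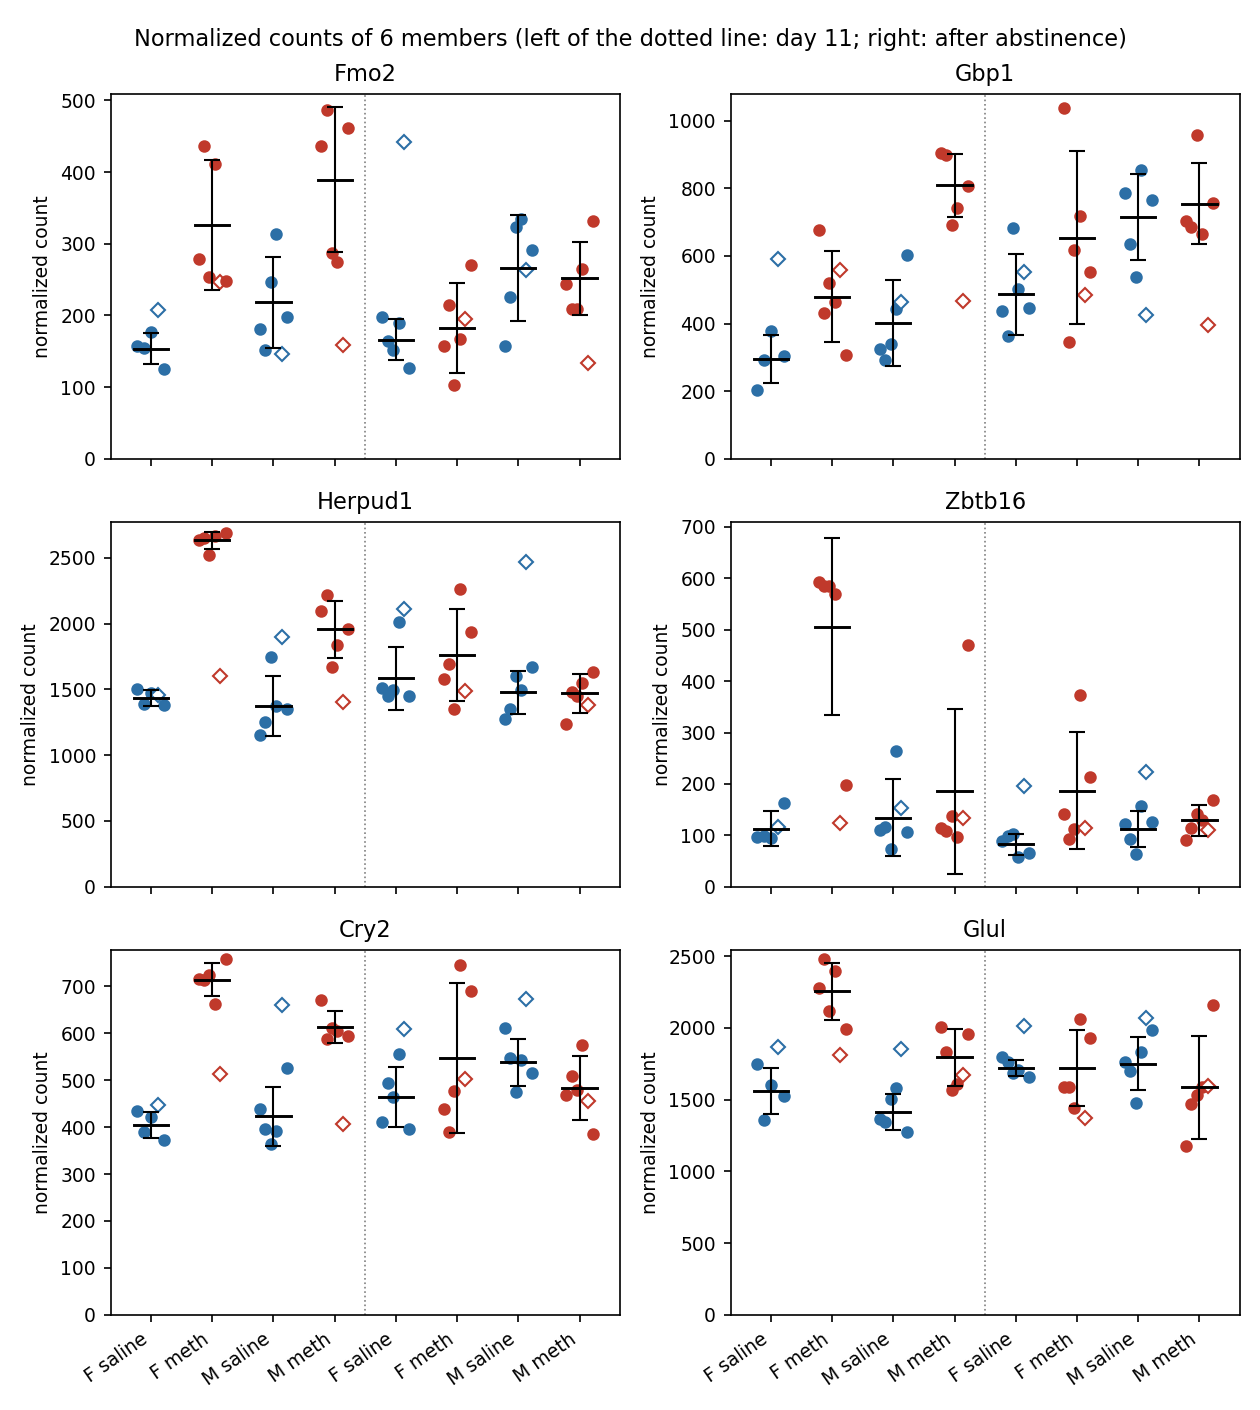
Normalized counts (vertical axes, starting at 0) of Fmo2, Gbp1, Herpud1, Zbtb16, Cry2 and Glul in each library of the 8 groups (horizontal axes), day 11 to the left of the dotted line and abstinence to the right. Filled points are libraries, open diamonds the libraries labelled replicate 5, and bars the mean and SD without replicate 5. Herpud1 in females at day 11 shows the widest separation, from 1500 at most with saline to 2522 at least with methamphetamine, and the groups overlap after abstinence.

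The 4 libraries of day 11 labelled replicate 5 did not enter the choice. Their sex labels go against the male-specific genes and their treatment labels were not tested, so the values are given by label and no direction of the drug is drawn from them. By label, a smaller share of the 100 genes than of the candidates was higher with methamphetamine. The ratio of methamphetamine to saline was above 0 for 40 of 100 genes in the pair labelled F, beside 51.3% of the candidates, and for 36 in the pair labelled M, beside 49.6%. Both libraries labelled methamphetamine lay above both labelled saline for 8 genes, beside 13.7%, and below them for 21, beside 14.1%. Taking both pairs together in edgeR's quasi-likelihood test with labelled sex as a covariate, the log2 fold change was above 0 for 30 of the 100 genes, beside 50.7% of 13712 genes, with a median of -0.07. The level of the 100 genes was 0.36 and 0.31 in the libraries labelled methamphetamine and 0.39 and 0.39 in those labelled saline.

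The replicate 5 libraries labelled saline thus lay above every other saline library of day 11, and those labelled methamphetamine below the lowest treated library of their labelled sex. The other libraries of day 11 chose the genes, which lowers their saline levels and raises their treated levels. Nothing is therefore read from the position of the replicate 5 libraries. Arntl in these libraries was 546 and 459 in those labelled methamphetamine, within or above the range of the other saline libraries of the labelled sex and far above the other treated libraries, and 490 and 97.1 in those labelled saline females and males. Cry2 was 514 and 407 with methamphetamine and 446 and 660 with saline. One gene, ENSRNOG00000058589, was called higher in the replicate 5 libraries labelled methamphetamine, by 0.68 ± 0.11 (SE) on the log2 scale (edgeR, Benjamini-Hochberg adjusted p = 2.22e-05), beside 43 of 13712 genes called (0.314%). It is the most abundant of the 100 genes, and DESeq2 on the same 4 libraries called 0 genes. Its normalized count was 14883 and 12083 in the libraries labelled methamphetamine and 12176 and 5749 in those labelled saline. The log2 ratio was 0.29 in the pair labelled F and 1.07 in that labelled M. With only 4 libraries in the fit, the SE is a poor measure of the spread between rats. In simulated counts for this comparison, 24.8% of calls were false.

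**Figure D3:**
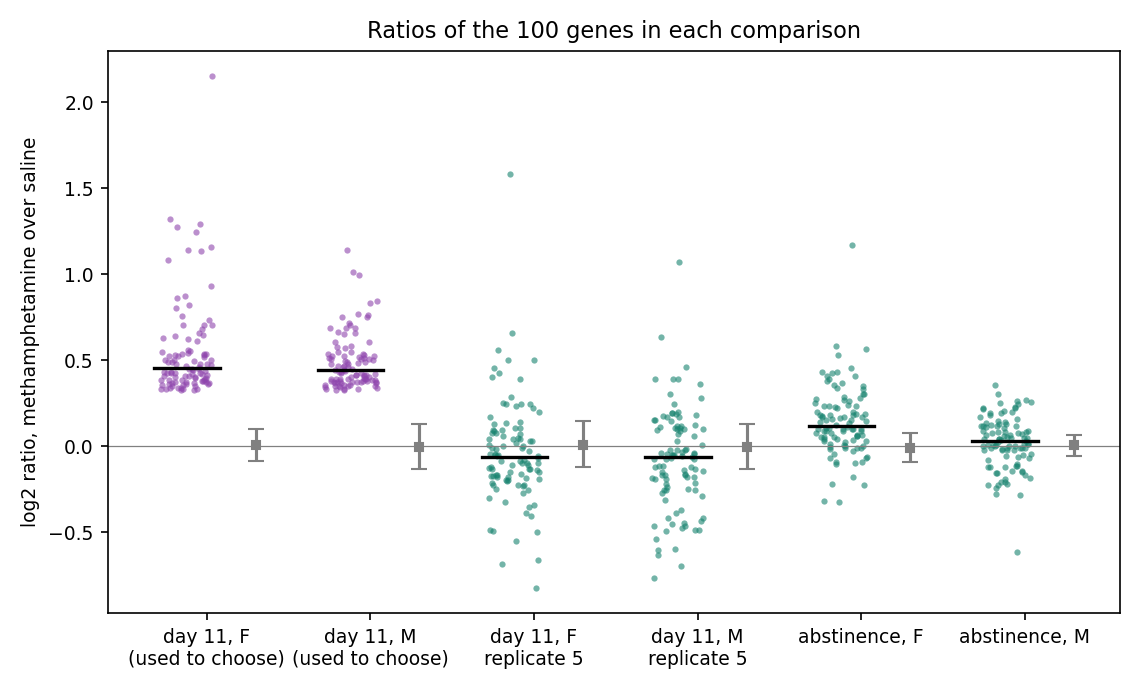
Log2 ratio of methamphetamine to saline (vertical axis) of each of the 100 genes in 6 comparisons (horizontal axis), with the median as a black line. Grey squares and bars are the median and the middle range (quartiles) of the 10408 candidates. The day 11 ratios, which chose the genes, all lie above 0.32, the replicate 5 ratios have medians of -0.06 and -0.06, and the ratios after abstinence have medians of 0.12 in females and 0.03 in males.

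After 30 days of abstinence, the level of the 100 genes in treated hearts overlapped that in saline hearts in both sexes. Every treated library lay above every saline library for 0 of the 100 genes in females, beside 0.259% of the candidates, and for 0 in males, beside 0.653%. Counts of 0 are near these shares, so nothing about the 100 genes is read from them. The level of the 100 genes was -0.16, -0.03, 0.02, 0.25 and 0.32 in saline females and -0.22, 0.19, 0.30, 0.33 and 0.44 in treated females. In males it was -0.06, 0.21, 0.22, 0.27 and 0.46 with saline and -0.04, 0.26, 0.32, 0.33 and 0.36 with methamphetamine. Both pairs of groups overlapped over most of their range. The SD within a group was 0.16 to 0.26, compared with 0.05 and 0.10 among treated females and males and 0.15 and 0.23 among saline females and males at day 11.

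In hearts from females after abstinence, the log2 fold change was above 0 for 80 of the 100 genes, beside 47.8% of 13610 genes, with a median of 0.11. The 100 genes varied together from rat to rat after abstinence, with a median pairwise correlation of 0.42. Counts of the 100 genes in these libraries are therefore not counts of independent genes, in this and the other comparisons after abstinence. edgeR's quasi-likelihood test called 0 of the 100 at an adjusted p under 0.1, and 0 of all genes (0%), of which 541 (3.98%) had an unadjusted p under 0.05, Zbtb16 and 1 other of the 100 among them. That count of 2 was not stable: it was 29 (28 higher) with voom quality weights, beside 13.7% of all genes, 26 (23 higher) without methamphetamine replicate 2, beside 14.5%, 17 (all higher) with the rat number series as a block, beside 6.03%, 12 (11 higher) without saline replicate 3, beside 4.36%, and 1 to 4 under the other alternatives run. DESeq2 called 6 genes, and limma on voom weights or on the deposited log2 values 0, none of them among the 100. The count above 0 was 63 with replicate 5 put back and 66 to 88 when 1 library was left out, lowest without methamphetamine replicate 6 and highest without saline replicate 3. The median was 0.05 with replicate 5 put back, 0.07 without saline replicate 4, 0.17 without saline replicate 2, 0.19 without saline replicate 3, 0.20 without methamphetamine replicate 2, 0.20 with voom weights and 0.20 with the series as a block. Ptprc, a leukocyte marker, had 664 normalized counts in methamphetamine replicate 3, 412 in replicate 4 and 307 in replicate 6. In saline females it had 176 to 215. The count above 0 was 81 without methamphetamine replicate 3, 73 without replicate 4 and 66 without replicate 6. Myl4 was also highest in methamphetamine replicates 3 and 4, at 308 and 218. These replicates were not left out together, and the part of Ptprc or Myl4 in the count was not tested.

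In hearts from males, the log2 fold change was above 0 for 58 of the 100 genes, beside 50.7% of 13621 genes, with a median of 0.03, and 0 of the 100 were called beside 14 of all genes (0.103%). Arntl was 482 to 620 in saline males and 177 to 490 in treated males. Genes that followed Arntl closely in the abstinence libraries were left out of the 100 but not of all genes. The count of 0 called may therefore be partly set by the rule. An unadjusted p under 0.05 was found for 7 of the 100, beside 5.94% of all genes, 1 higher and 6 lower with methamphetamine. Without methamphetamine replicate 1 there were 13, 8 of them higher, beside 8.46% of all genes. The direction in males rested on single libraries: the count above 0 was 41 without saline replicate 3 (median -0.02), 43 with replicate 5 put back (median -0.04), 69 without methamphetamine replicate 1 (median 0.09) and 70 without saline replicate 6 (median 0.09). It was 49 to 50, with a median below 0, without methamphetamine replicate 3, 4 or 6, and 53 with a median of 0.00816 without saline replicate 1. Taking both sexes together, 72 of the 100 genes had a log2 fold change above 0, beside 49% of 13817 genes, with a median of 0.08, and 0 of them were called, nor was any other gene (0%), though 686 genes (4.96%), Zbtb16 and Dnajb4 among them, had an unadjusted p under 0.05. The 2 of the 100 became 9 with voom weights, beside 9.61% of all genes, and 9 with the series as a covariate, beside 6.69%. The count was 14 without female methamphetamine replicate 2, beside 9.22%, and 7 without male methamphetamine replicate 1, beside 6.26%. In these 4 fits all of them were higher, and the count was 1 to 5 under the other alternatives run. On both sexes DESeq2 called 9 genes, limma on voom weights 82 and limma on the deposited log2 values 0, none of them among the 100. With replicate 5 put back 49 of the 100 were above 0. The effect was larger in females than in males for 72 of the 100 genes, beside 49.4% of 14020 genes, and 0 genes differed between the sexes at the threshold (0%), with 738 genes (5.26%), 8 of them among the 100, at an unadjusted p under 0.05 and 26 genes called by DESeq2, none among the 100.

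In the replicate 5 pairs after abstinence, whose labels are in the same doubt, the library labelled methamphetamine was above that labelled saline for 14 of the 100 genes in the pair labelled F, beside 47.7% of the candidates, and for 28 in the pair labelled M, beside 46.9%. Arntl was 70.4 and 90.3 in the replicate 5 libraries labelled saline females and males, against 190 to 542 in the other saline females and 482 to 620 in the other saline males. It was 147 and 514 in those labelled methamphetamine, against 91.6 to 429 in the other treated females and 177 to 490 in the other treated males.

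Gene by gene, Zbtb16 had the highest fold change of the 100 genes after abstinence in females and over both sexes, but not in males. Its counts were 57.7, 64.9, 89.3, 97.8 and 103 in saline females and 93.8, 112, 142, 214 and 373 in treated females. Of the 5 treated females, 4 lay above every saline female. The log2 fold change was 1.17 ± 0.34 (SE) with an unadjusted p of 0.00468, and an adjusted p of 0.994 by edgeR over all genes. Without methamphetamine replicate 4 it was 0.77. In males it was 0.19 ± 0.20, from 63.8, 93.4, 123, 126 and 157 with saline to 90.5, 114, 131, 141 and 169 with methamphetamine. The difference between the sexes was 0.98 ± 0.43 (adjusted p = 0.922 by edgeR).

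For the other named genes with large day 11 ratios, treated and saline libraries overlapped after abstinence. Fmo2 had 127, 152, 164, 190 and 198 in saline and 102, 158, 167, 215 and 270 in treated females, a fold change of 0.13 ± 0.22 on the log2 scale. In males it had 158, 226, 291, 323 and 335 with saline and 209, 210, 243, 264 and 332 with methamphetamine, -0.08 ± 0.18. Each pair of groups overlapped throughout. Herpud1 had 1452, 1452, 1495, 1513 and 2012 in saline and 1352, 1577, 1691, 1940 and 2261 in treated females, 0.15 ± 0.14, and a fold change of -0.01 ± 0.08 in males. Cry2 had 396, 412, 465, 493 and 556 in saline and 389, 438, 476, 689 and 745 in treated females, 0.23 ± 0.18, and -0.16 ± 0.10 in males. The highest Cry2 counts among treated females, in replicates 4 and 6, came from libraries with an Arntl count of 102 and 91.6, the lowest of that group.

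Gbp1 had 363, 438, 446, 501 and 682 in saline and 344, 552, 617, 719 and 1039 in treated females, a log2 fold change of 0.42 ± 0.25, and 0.07 ± 0.12 in males. Dnajb4 had a fold change of 0.17 ± 0.07 over both sexes, with an unadjusted p of 0.0217 and an adjusted p of 0.900 by edgeR. Mid1ip1 had 0.03 ± 0.14 in females and 0.14 ± 0.07 in males, Sesn1 0.02 ± 0.11 and 0.01 ± 0.08, and Glul -0.01 ± 0.10 and -0.14 ± 0.12. For the lowest named values over both sexes, Cldn12 had -0.16 ± 0.08 and the zinc finger gene Zfp641 -0.12 ± 0.10. None of these passed the adjusted threshold, which does not show that the groups were alike. In simulated counts at this size, 85.5% of 200 genes changed by 2-fold were recovered in the female comparison. In the comparison over both sexes, 97% were recovered. Most of the genes described here had a day 11 ratio below 2-fold, with log2 medians of 0.46 in females and 0.44 in males. Smaller changes were not simulated, so these shares do not tell how often changes of that size would be found. The simulated counts also varied independently from gene to gene, so the shares may not carry over to genes that vary together.

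The 100 genes varied together from rat to rat after abstinence. With group means removed, the median Pearson correlation between pairs of them over the 20 libraries was 0.42 and 84.9% of pairs were above 0, against a median of -0.0013 and 49.9% for the candidates. The points share libraries and depth, so this is a description. The libraries with the lowest levels after abstinence were female methamphetamine replicate 2 at -0.22, female saline replicate 4 at -0.16, male saline replicate 3 at -0.06 and male methamphetamine replicate 1 at -0.04. Their total counts were 7663300, 6815590, 7280679 and 8081827. Without replicate 5, each was the lowest total of its group except in treated males, where replicate 3 had 7592188. The part of depth in these levels was not tested.

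The sexes differed among saline hearts after abstinence, in libraries that did not enter the day 11 ratios. The level was lower in females than in males for 71 of the 100 genes and higher for 29, beside 49.5% higher of 13538 genes, with a median log2 difference (females minus males) of -0.15. edgeR's quasi-likelihood test called 15 of the 100, beside 1247 of 13538 genes (9.21%): 13 were lower in females and 2 higher. The count of the 100 called was 3 with replicate 5 put back, 9 with the replicate number as a block, and 9 to 23 when 1 library was left out, 23 without female saline replicate 3 and 9 without female saline replicate 6, male saline replicate 4 or male saline replicate 6. The number of all genes called moved as well, from 646 to 1965 when 1 library was left out, so 9.21% is not the background of these other counts. Nothing particular to the 100 genes is read from them.

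Fmo2 and Gbp1 were among those lower in female saline hearts. The log2 difference of Fmo2 was -0.69 ± 0.19 (SE, adjusted p = 0.0510 by edgeR), from means of 166 ± 28.9 in females and 266 ± 73.9 in males (SD, n = 5 each). That of Gbp1 was -0.56 ± 0.16 (adjusted p = 0.0549), from 486 ± 120 and 715 ± 127. Both calls were lost with replicate 5 put back, with the replicate block, and without female replicate 6, male replicate 4 or male replicate 6, and Gbp1's also without female or male replicate 1. Rapgef5 at -0.43 ± 0.08 (adjusted p = 0.00960) and Ivns1abp, a Kelch-domain protein, at -0.37 ± 0.07 (adjusted p = 0.00660) were also lower in females, and each was lost only with replicate 5 put back. Rapgef5 had 303 to 369 in saline females and 420 to 508 in saline males after abstinence, with no overlap.

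Fam120b, a coactivator of PPAR gamma, passed at -0.25 ± 0.08 (adjusted p = 0.0962) but under most alternatives did not. ENSRNOG00000020047, which ranked first of the 100 by the day 11 rule, had a log2 difference of -0.47 ± 0.09 (adjusted p = 0.00982), and ENSRNOG00000007081 of -0.57 ± 0.07 (adjusted p = 0.000803), with 832 to 917 normalized counts in females and 1133 to 1469 in males. Both genes that were higher in females are unnamed. ENSRNOG00000049766 had 274 to 411 in females and 135 to 201 in males, a difference of 0.97 ± 0.13 (adjusted p = 0.00121), and ENSRNOG00000008943 had 663 to 2727 and 528 to 927, a difference of 1.36 ± 0.33 (adjusted p = 0.0357).

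The level of the 100 genes in females after abstinence was also compared between the number series of the rats. Among females after abstinence, 4 libraries came from rats of the low series (1 saline, 3 methamphetamine) and 6 from rats of the high series (4 saline, 2 methamphetamine). The levels overlapped: -0.22, -0.03, 0.19 and 0.30 in the low series and -0.16, 0.02, 0.25, 0.32, 0.33 and 0.44 in the high series. Arntl was 237 to 542 in the low series and 91.6 to 459 in the high series, and its part was not tested. With treatment in the model, the log2 difference of high against low series was above 0 for 89 of the 100 genes, beside 48.7% of 14258 genes, with a median of 0.21. It had an unadjusted p under 0.05 for 21 of the 100, all higher in the high series, beside 2.1% of genes higher at that p. That count was 11 to 24 when 1 library was left out, 11 without methamphetamine replicate 6 and 13 without methamphetamine replicate 4. Without methamphetamine replicate 2 the median was 0.14 and 74 genes were above 0. Because the 100 genes vary together, the 89 and the 21 are not counts of independent genes. No gene of the 100 passed the adjusted threshold, beside 1 of 14258 genes (0.00701%), and DESeq2 called 23 genes, none of them among the 100.

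Of the named genes, F3 at 0.59 ± 0.15 (unadjusted p = 0.00214) and Cry2 at 0.52 ± 0.14 (unadjusted p = 0.00238) had the lowest p between the series. Zbtb16 had 0.83 ± 0.30, Rapgef5 0.41 ± 0.11, Mid1ip1 0.31 ± 0.13, Sesn1 0.26 ± 0.10 and Herpud1 0.31 ± 0.14, and the adjusted p of these genes, Cry2 and F3 ran from 0.816 to 0.961 by edgeR. In males at day 11 the series and the treatment coincide, and the choice of the genes fixed the higher level in treated males. How much of the day 11 ratio in males comes with the series was not tested. With the series as a block, the effect of methamphetamine in females after abstinence was above 0 for 87 of the 100 genes, beside 7096 of 14258 genes, and 0 were called.

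**Figure D4:**
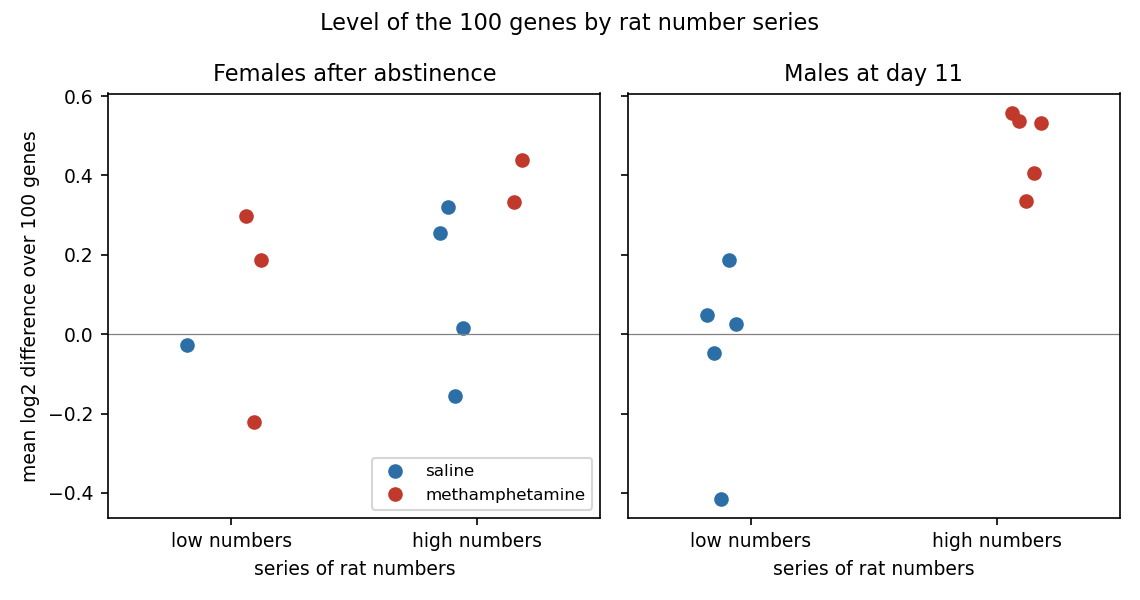
Level of the 100 genes (vertical axis, mean log2 difference from the saline libraries of day 11) by rat number series (horizontal axis), for females after abstinence and for males at day 11, without replicate 5. Each point is 1 library. In males at day 11 the saline points, all of the low series, lie between -0.41 and 0.19 and the methamphetamine points, all of the high series, between 0.33 and 0.56, whereas both series in females after abstinence hold both treatments.

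The lists of pathway genes show how few members could be followed by name. Of the 327 genes with a symbol, mostly genes the study had listed as changed, 24 were among the 100. Nothing about a pathway is read from the counts below. Of 19 glucocorticoid-responsive genes listed, 3 had an identifier, and 2 of them, Zbtb16 and Glul, were among the 100. The third, Tsc22d3, an inhibitor of NF-kappa B and AP-1 signalling, had ratios of 0.76 in females and 0.27 in males at day 11 and ranked 185th. After abstinence its means were 605 with saline and 800 with methamphetamine in females and 638 and 674 in males. Of 13 targets that FOXO factors induce, 4 had an identifier and 1, Sesn1, was among the 100, while Pik3ip1 was left out for a correlation with Arntl of -0.84. Txnip, which restrains glucose uptake, and Foxo1 had ratios of opposite sign in the 2 sexes, 0.76 and -0.38 for Txnip and -0.58 and 0.12 for Foxo1.

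Of 12 genes of endoplasmic reticulum stress and of 10 heat shock genes, 1 each had an identifier, Herpud1 and Dnajb4, and both were among the 100. Of 10 genes of lipid synthesis, 2 had an identifier: Mid1ip1 was among the 100 and Dgat2, which makes triglyceride, was left out for a correlation with Arntl of -0.83. Of 13 xenobiotic and redox enzymes, 3 had one: Fmo2 was among the 100, Ephx1 was left out at -0.83, and Por, the electron donor of cytochromes P450, ranked 521st. Of 11 genes of polyamines and methionine, 5 had an identifier and 0 were among the 100. Sat1, which starts the breakdown of polyamines, had ratios of -0.47 in females and -0.40 in males, and Mtrr, which reactivates methionine synthase, 0.15 and 0.25. Srm, Amd1 and Mat2a had ratios of 0.37, 0.57 and 0.43 in females, and in males 0.00145 for Srm, 0.00713 for Amd1 and 0.000213 for Mat2a. Of 15 genes of fatty acid oxidation and PPAR targets, 2 had an identifier and 0 were among the 100. Ucp3, at -1.61 in females and -0.52 in males, was left out for a correlation with Arntl of 0.84, and Plin4 ranked 115th. Of 14 ribosome biogenesis and 13 immediate early genes, 1 each had an identifier, Ifrd2 and Ier3. Both were left out for their correlation with Arntl. Of 6 genes of hypertrophy and load, 0 had an identifier.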

How the data were processed

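Raw gene counts and normalized counts from left ventricular RNA were taken as deposited. Per the labels and the study's methods, Trimmomatic 0.38, HISAT2 2.1.0 on the Rnor_6.0 build and DESeq2 1.20.0 were the authors' tools for trimming, alignment and normalization. Libraries came from a stranded mRNA kit, and reads were assigned to Ensembl transcripts with GenomicAlignments. Whether the counting used strand is not given in the sources used here. The deposited counts are whole numbers for 32883 genes. The deposited normalized counts are a signal, the counts divided by 1 size factor per library. No table column was of unknown sample.

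The 100 genes and all lists were chosen with earlier results of these data known. The log2 ratios used an offset of 1. Tests were edgeR 4.0.16 quasi-likelihood fits (R 4.3.3) on counts with TMM, filterByExpr and Benjamini-Hochberg adjusted p under 0.1 over all genes tested, without replicate 5. Replicates are separate rats. Per the study's methods, the rats came from several breeders and each litter was spread over all groups. The labels do not give the litter, so the tests leave it out. DESeq2 1.42.0, limma 3.58.1, other filters and scaling, a replicate block, leaving out each library and changes to the rule were alternatives. Each edgeR comparison was also tested on simulated counts, drawn independently for each gene. Gene names came from the study's supplementary tables and RefSeq, and covered 327 genes. Named were the members with the highest ratios, the highest and lowest fold changes, any call, list membership, the rule's edge or the highest abundance, and among members without a symbol only a few were printed.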

Additional observations from a re-analysis of the deposited data

Results flagged for a closer look

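Values far from the rest of their group were looked for with Dixon's test in 104 groups of libraries (the level of the 100 genes and 12 genes in 8 groups, without replicate 5), and 11 were found, where chance gives about 1 in 20. The level of the 100 genes was -0.17 in female saline replicate 2 at day 11 (the others 0.10 to 0.14) and -0.039 in male methamphetamine replicate 1 after abstinence (the others 0.26 to 0.36). Zbtb16 was 164 in female saline replicate 6 (the others 94.01 to 98.2) and 198 in female methamphetamine replicate 6 (569 to 593), and 265 in male saline replicate 4 (73.3 to 117) and 470 in male methamphetamine replicate 6 (96.6 to 137), all at day 11. Cry2 was 670 in male methamphetamine replicate 1 (587 to 611) and Dnajb4 1062 in female methamphetamine replicate 1 (1191 to 1222), both at day 11. After abstinence, Herpud1 was 2012 in female saline replicate 4 (1452 to 1513), Sesn1 1092 in female saline replicate 2 (910 to 954) and ENSRNOG00000058589 16994 in male saline replicate 6 (7750 to 9878).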

How the results depend on the processing

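Of 437 recomputed counts, 377 stayed within 1.5 times the value reported and 60 moved. Of 2883 recomputed fold changes of named genes, 0 that were called changed direction, 35 lost and 4 gained a call. No gene of the 100 was called for methamphetamine after abstinence under any alternative run. The rule's limit on the correlation with Arntl was set on the abstinence libraries too. The numbers of all genes called moved as follows, and the cause was not tested. For females (0 reported), DESeq2 and the replicate block each called 6. For males (14 reported), replicate 5 put back gave 0, DESeq2 64, voom 77, no filter 27, a threshold of 0.05 8 and the replicate block 50. For both sexes (0 reported), DESeq2 gave 9, voom 82, no filter 8, the replicate block 9 and the rat number series 42. For the sex difference of the effect (0 reported), DESeq2 gave 26, voom 5 and no filter 1. In replicate 5 at day 11 (43 reported, 1 of the 100), DESeq2 gave 0 and 0. For saline sexes (1247 reported, 15 of the 100), replicate 5 put back gave 314 and 3, a threshold of 0.05 gave 644 and 9, and the replicate block 534 and 9. For the number series (1 reported), replicate 5 put back gave 0, DESeq2 23 and a threshold of 0.05 0.

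Leaving out 1 library gave 0 to 0 genes called for females, 2 to 62 for males, 0 to 6 for both sexes, 0 to 1 for the sex difference, 646 to 1965 for saline sexes (9 to 23 of the 100) and 0 to 4 for the series. For males the count was 54 and 62 without methamphetamine replicates 1 and 6, and 2 to 8 without methamphetamine replicate 2, 3 or 4 or saline replicate 1, 2, 4 or 6. Over both sexes it was 6 and 1 without female methamphetamine replicates 2 and 3 and 5 without male methamphetamine replicate 1. For saline sexes it was 1965 without female replicate 3 and 646 to 817 without female replicate 1 or 6 or male replicate 1, 2 or 4. For the sex difference it was 1 without female methamphetamine, female saline or male methamphetamine replicate 6, and for the series 4 without female saline replicate 6 and 0 without 7 others.

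Of the 100 genes, 74 remained with replicate 5 in the rule, 90 and 93 at correlation limits of 0.5 and 0.7, 80 with none, 81 at a mean of 20, 95 on TMM CPM, 67 on medians and 76 to 93 without 1 library. Same-numbered libraries did not consistently deviate together (correlations of -0.496 to 0.173 in females and -0.209 to 0.156 in males). The replicate numbers were therefore not taken as a pairing in the main tests, though these few correlations cannot exclude one. The precision is set by 5 rats a group, by the 327 genes with names, and by the replicate 5 labels.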
